A study of Mus musculus with 6 samples.

Results

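The genes described here are the extracellular metalloproteinases and their tissue inhibitors. They are all genes of the deposited count table whose symbols name a matrix metalloproteinase (Mmp), a disintegrin and metalloproteinase (Adam), an Adam with thrombospondin motifs (Adamts) or a tissue inhibitor of metalloproteinases (Timp), without Mmp8 and Mmp9, which are stored in neutrophil granules. The rule gave 59 of 24167 genes, of which 19 were MMPs, 19 ADAMs, 18 ADAMTS enzymes and 3 TIMPs. They were measured in liver metastases grown from the mouse triple-negative breast cancer line 4T1 in female BALB/c mice aged 6 to 8 weeks. One group received ZDHHC17-silenced cells (shZdhhc17), which carried a pLKO.1 lentiviral hairpin against the palmitoyltransferase gene Zdhhc17, and the other received control cells with a scrambled hairpin (shSCR). Both populations had been selected with puromycin, and 500000 cells were injected hydrodynamically into the tail vein. Metastases were dissected under a microscope on day 10, and polyadenylated RNA was sequenced from 3 libraries per group. Host hepatocytes, stromal cells and leukocytes in the dissected tissue carry no hairpin, and bulk RNA does not show which cells a transcript came from. The labels do not say that each library is a separate mouse, so the tests speak of the spread among these samples, which may be technical.

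MMPs are zinc endopeptidases that cut collagens, elastin and other matrix proteins, and most are secreted as inactive precursors or held at the cell surface by a membrane anchor. ADAMs are membrane proteins; the catalytically active ones shed growth factors, cytokines and adhesion molecules from the cell surface, while some members lack a working active site and act in adhesion. ADAMTS enzymes are secreted and process procollagens, proteoglycans and microfibril proteins. TIMPs bind the active site of these enzymes and block it. In the liver, activated stellate cells and macrophages are known sources of MMPs and TIMPs, and tumour cells and fibroblasts of a metastasis make them as well.

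A block of MMP genes lies side by side on mouse chromosome 9, and it holds both of the members with the smallest p-values. In the RefSeq annotation of GRCm38.p6 the order is Mmp13, Mmp12, Mmp1b, Mmp3, Mmp1a, Mmp10, Mmp8, Mmp27, Mmp20 and Mmp7, with 0 other protein-coding genes in between. Mmp20 was not analysed here. The windows below show the 100 bases before and the 20 bases from the annotated transcription start of the 8 members of the block, 5′ to 3′ on the strand of the gene, from RefSeq (GRCm38.p6, another build than the GRCm39 of the counts). They are shown because 7 of these 8 promoters hold a pair of motifs, at differing positions, that no other member with a promoter in the table holds together. Capitals mark the letters of an AP-1 site and of a TATA box.
Mmp13 (chr9:7272414-7272533, plus strand): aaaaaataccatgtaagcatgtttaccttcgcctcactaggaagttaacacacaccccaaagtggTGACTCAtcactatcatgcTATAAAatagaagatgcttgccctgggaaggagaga
Mmp12 (chr9:7347274-7347393, plus strand): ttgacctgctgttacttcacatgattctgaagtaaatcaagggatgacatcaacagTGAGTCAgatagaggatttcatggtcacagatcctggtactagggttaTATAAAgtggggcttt
Mmp1b (chr9:7388007-7388126, minus strand): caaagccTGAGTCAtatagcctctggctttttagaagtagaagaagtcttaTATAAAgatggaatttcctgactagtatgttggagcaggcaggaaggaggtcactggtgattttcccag
Mmp3 (chr9:7445722-7445841, plus strand): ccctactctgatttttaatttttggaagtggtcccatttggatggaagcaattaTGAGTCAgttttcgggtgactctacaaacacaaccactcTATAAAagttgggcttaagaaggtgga
Mmp1a (chr9:7464041-7464160, plus strand): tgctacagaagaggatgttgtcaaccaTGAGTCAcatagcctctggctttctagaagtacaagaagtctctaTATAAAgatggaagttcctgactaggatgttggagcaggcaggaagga
Mmp10 (chr9:7502242-7502361, plus strand): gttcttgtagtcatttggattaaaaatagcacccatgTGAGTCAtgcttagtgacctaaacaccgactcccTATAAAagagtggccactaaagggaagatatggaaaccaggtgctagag
Mmp27 (chr9:7571296-7571415, plus strand): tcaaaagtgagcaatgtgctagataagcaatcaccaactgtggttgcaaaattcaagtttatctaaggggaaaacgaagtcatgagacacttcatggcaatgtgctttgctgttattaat
Mmp7 (chr9:7691990-7692109, plus strand): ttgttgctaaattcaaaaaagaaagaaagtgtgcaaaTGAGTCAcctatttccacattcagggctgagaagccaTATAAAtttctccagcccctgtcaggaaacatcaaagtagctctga

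The letters searched were TGAGTCA for AP-1 and TATAAA for the TATA box, on either strand, in the 250 bases before and 50 bases after each start; these letters do not overlap each other. Both were found in 7 of the 8 promoters of the block, Mmp27 being the exception, and in 0 of 7 promoters of MMPs outside it. For Mmp12 and Mmp7, which have 2 annotated starts each, 1 of the 2 held the pair. Across the 27025 genes of the promoter table, 5.95% had the AP-1 letters, 15.7% the TATA letters and 1.31% both. The first base of the AP-1 letters lay between 93 and 35 bases before the start, at -35 in Mmp13 (on the opposite strand), -44 in Mmp12, -46 in Mmp3 and -63 in Mmp10 and Mmp7. The TATA letters began at -16 in Mmp13, -49 in Mmp1b, -7 in Mmp3, -28 in Mmp1a, -29 in Mmp10 and -26 in Mmp7 (with a second match at -123), but 4 bases after the annotated start in Mmp12, so their place differed between the genes. Outside the MMPs, 1 of 9 ADAM promoters (Adam19), 0 of 9 ADAMTS promoters and 0 of 3 TIMP promoters held the AP-1 letters. The letters AGGAAGT, read by ETS factors, were found in Mmp12, Mmp13, Mmp7 and Timp1 and in 10.7% of all promoters. The letters AACCACA, read by RUNX factors, were found in Mmp13, Mmp27 and Mmp7 and in 6.09% of all promoters. Of the 59 members, 36 had a promoter in the table. Such a match describes the sequence and does not show that a factor binds there.

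**Figure D1:**
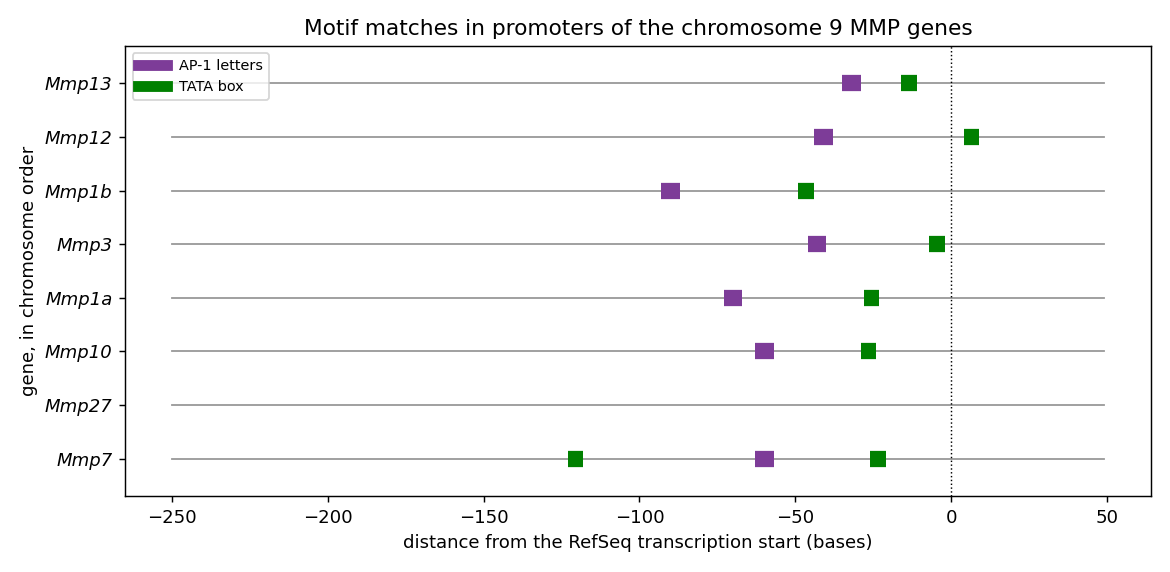
Positions of the AP-1 letters (purple) and TATA box letters (green) in the promoters of the 8 members of the chromosome 9 block; the x axis is the distance from the annotated transcription start in bases, and each grey line is 1 promoter of 250 bases before and 50 after the start. The promoters with the letters are drawn for Mmp12 and Mmp7, and 7 of the 8 genes have both, with Mmp27 having neither.

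The 6 libraries held 15832837 to 18234406 counts in shZdhhc17 metastases and 16129825 to 19186615 in shSCR metastases. Zdhhc17, the targeted gene, had 25.9, 27.8 and 26.0 CPM (counts per library, scaled to a common TMM-adjusted total) in shZdhhc17 metastases, against 33.7, 32.4 and 34.2 CPM in shSCR metastases; the groups did not overlap, and the log2 fold change was -0.33 ± 0.11 (SE; adjusted p = 0.383). ShSCR replicate 1 stands apart by its ribosomal transcript Rn18s-rs5, at 2.54% of counts against 0.194 to 0.412% in the other 5 libraries. Summed over 10 stellate cell and fibroblast markers, levels were 3264 to 3940 CPM in shZdhhc17 and 4042 to 7084 CPM in shSCR metastases, with 7 of 10 lower in shZdhhc17. Col1a1 and Col3a1 made up most of these sums. As a mean of log2(CPM + 1) the same list overlapped, at 6.65 to 6.89 in shZdhhc17 and 6.79 to 7.08 in shSCR metastases. The 3 higher markers were Reln, Lrat and Dcn, at log2 fold changes of 0.99, 0.55 and 0.30. Summed over 7 dendritic cell markers, levels were 27.0 to 43.3 CPM in shZdhhc17 and 45.1 to 110 CPM in shSCR metastases (7 of 7 lower). Their means of log2(CPM + 1) overlapped narrowly, at 1.88 to 2.28 in shZdhhc17 and 2.25 to 3.25 in shSCR metastases. Summed over 8 neutrophil markers, which include Mmp8 and Mmp9, levels were 472 to 710 CPM in shZdhhc17 and 234 to 377 CPM in shSCR metastases (7 of 8 higher). The sums of the other lists overlapped between groups. Hepatocyte markers summed to 38108 to 49688 CPM in shZdhhc17 and 17862 to 45090 CPM in shSCR metastases (7 of 8 higher), and carcinoma markers to 3096 to 4410 CPM in shZdhhc17 and 2856 to 3961 CPM in shSCR metastases (6 of 8 lower). Lcn2 made up a large part of the carcinoma sum, with 1360, 1302 and 1459 CPM in shZdhhc17 and 880, 791 and 322 CPM in shSCR metastases. It was higher without overlap (log2 fold change 1.05), and Krt8 lay at 0.04. The 6 lower carcinoma markers lay between -0.92 (Krt19) and -0.17 (Krt7). Macrophage markers summed to 1123 to 1391 CPM in shZdhhc17 and 1058 to 1373 CPM in shSCR metastases (5 of 10 lower), and endothelial markers to 282 to 415 CPM in shZdhhc17 and 297 to 349 CPM in shSCR metastases (6 of 8 higher). T cell markers summed to 8.93 to 16.8 CPM in shZdhhc17 and 10.8 to 42.8 CPM in shSCR metastases (7 of 7 lower), and mesothelial markers to 108 to 193 CPM in shZdhhc17 and 119 to 185 CPM in shSCR metastases (4 of 6 higher). Msln and Krt19 made up most of the mesothelial sum. As a mean of log2(CPM + 1) that list did not overlap, at 3.79 to 4.39 in shZdhhc17 and 2.92 to 3.67 in shSCR metastases. Lrrn4, Upk3b and Gpm6a were higher without overlap (log2 fold changes 3.28, 2.57 and 2.10), while Krt19 (-0.92) and Wt1 (-0.16) were lower. No marker was at 0 in any library, and tumour and liver markers were both present, as the label of the tissue says.

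The 59 members took 0.212, 0.184 and 0.193% of all counts in shZdhhc17 metastases and 0.193, 0.225 and 0.288% in shSCR metastases. Summed by family over the members, and so without Mmp8 and Mmp9, TIMPs had the highest level per kilobase of exon in every library. In replicate 2 of each group this order depends on leaving out Mmp9, which averaged 30.8 CPM per kilobase. The TIMP sum was 257, 176 and 274 CPM per kilobase in shZdhhc17 metastases and 202, 181 and 373 CPM per kilobase in shSCR metastases. The MMPs summed to 179, 146 and 136 CPM per kilobase in shZdhhc17 and 161, 162 and 168 in shSCR metastases, the ADAMs to 112, 116 and 105 in shZdhhc17 and 105, 110 and 132 in shSCR, and the ADAMTS enzymes to 43.1, 47.4 and 46.4 in shZdhhc17 and 45.3, 52.9 and 63.8 in shSCR metastases. The 2 groups overlapped in each of these sums. Averaged over the 6 libraries, Timp1 led the members with 165 CPM per kilobase, before Timp2 (58.7), the membrane-anchored collagenase gene Mmp14 (48.3), the sheddase gene Adam10 (32.7), the stromelysin gene Mmp3 (29.9), Adam9 (28.8) and the gelatinase gene Mmp2 (22.3). Inhibitors and a few broadly expressed enzymes thus held the top of this order, and most other members lay below 10 CPM per kilobase.

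**Figure D2:**
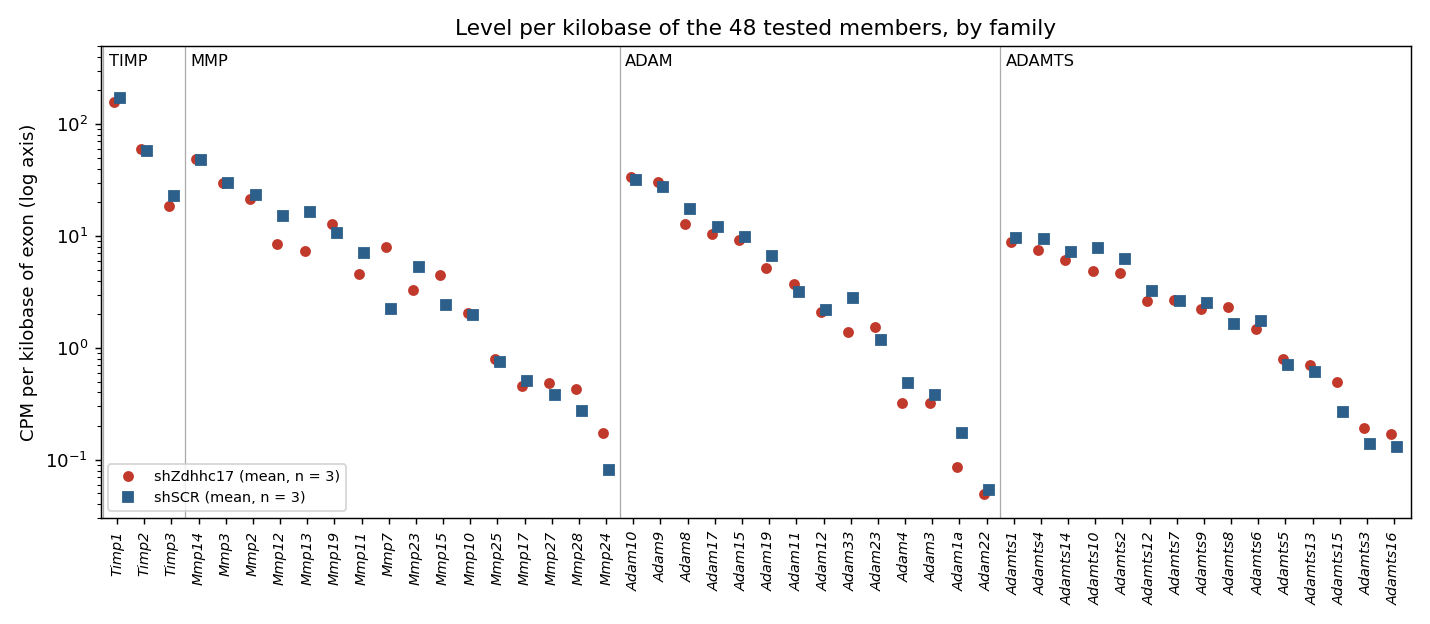
Mean level of the 48 tested members in CPM per kilobase of exon (log axis), by family and in falling order, with shZdhhc17 as red circles and shSCR as blue squares (n = 3 libraries each). Timp1 is highest at 165 CPM per kilobase over all libraries, and the 2 symbols lie apart for Mmp12 (8.56 in shZdhhc17 and 15.0 in shSCR) and Mmp13 (7.28 in shZdhhc17 and 16.4 in shSCR). They also lie apart for other members, among them Mmp7 (7.91 in shZdhhc17 and 2.21 in shSCR), Adam33 (1.39 and 2.82) and Mmp15 (4.47 and 2.43).

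Of the 59 members, 48 passed the filter on low counts and were tested, and 11 did not pass it. No member reached an adjusted p under 0.05 with edgeR's quasi-likelihood test, and neither did any of the 15567 genes tested (0%). At an unadjusted p under 0.05 there were 7 members, 3 higher and 4 lower in shZdhhc17 metastases, against 11.4% of all genes tested (4.72% higher and 6.71% lower). The members' share, 14.6%, lies near that of all genes. The groups did not overlap for 9 of the 48 (18.8%), 3 higher and 6 lower, against 17.1% of all genes tested (7.48% higher and 9.62% lower). The median log2 fold change was -0.11 over the tested members and 0.00 over all genes tested; 26 of the 48 were negative (54.2%, against 49.7% of all genes). By family the median was 0.06 for 16 MMPs, -0.18 for 14 ADAMs, -0.12 for 15 ADAMTS enzymes and -0.13 for 3 TIMPs. Scaling by library totals alone put the median of all genes at -0.13 and that of the members at -0.26. At that scaling 1 member was higher and 6 were lower at an unadjusted p under 0.05, beside 12.5% of all genes in both directions. The fold changes of 67.3% of all genes tested were then negative, so all genes shifted with the members. DESeq2 called 210 genes at an adjusted p under 0.05, of which 2 were members, Mmp12 and Mmp13. Without shZdhhc17 replicate 2 the count of members at an unadjusted p under 0.05 was 4, beside 6.36% of all genes, and without shSCR replicate 1 it was 10, beside 18.2% of all genes.

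**Figure D3:**
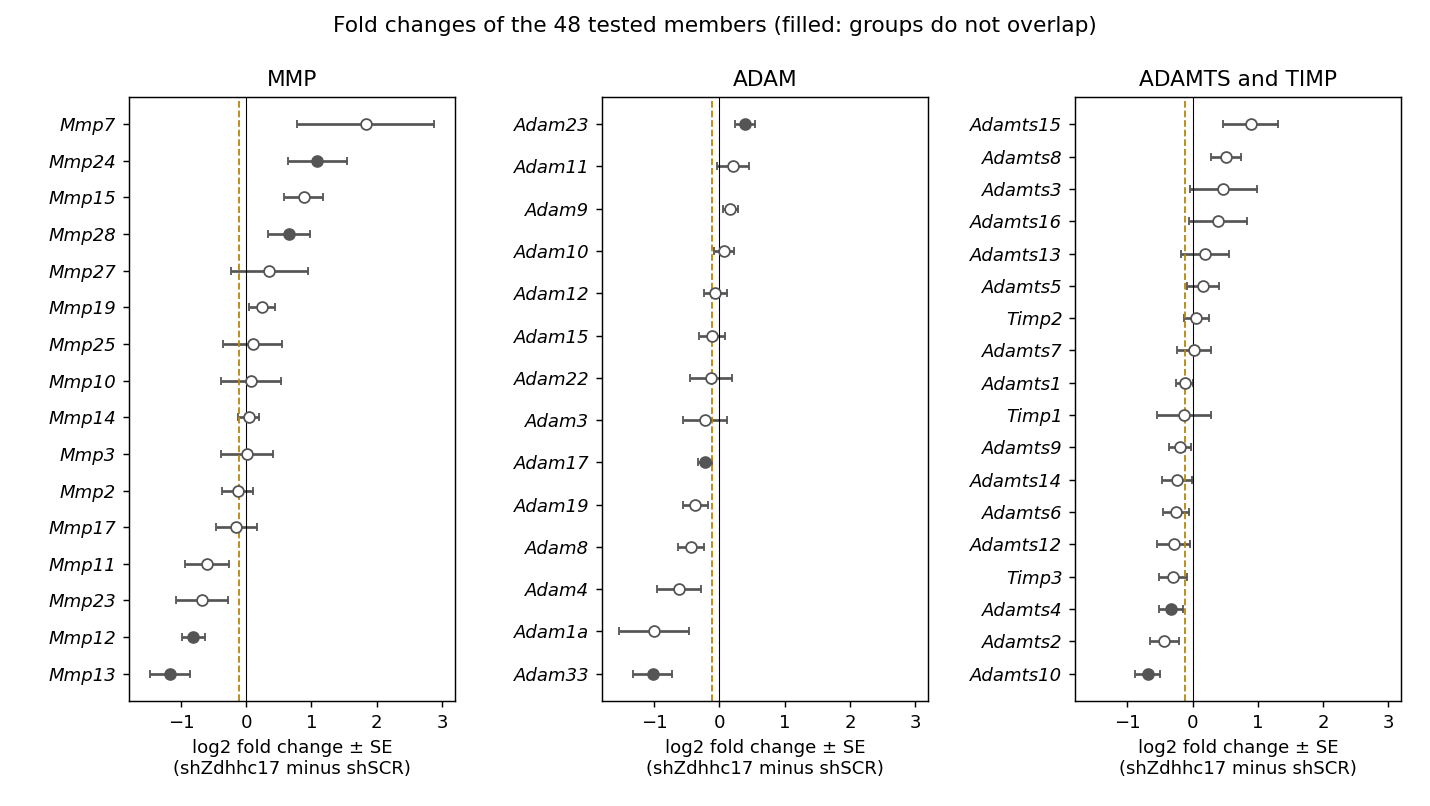
Log2 fold change (shZdhhc17 minus shSCR) with its SE for the 48 tested members, ordered within families; filled symbols mark the 9 members whose groups do not overlap, and the dashed line is the members' median of -0.11. Mmp13 is lowest at -1.17, and Mmp7 is highest at 1.83 with the widest error.

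Among the secreted MMPs, transcripts of the collagenase Mmp13 and the macrophage elastase Mmp12 were lower in shZdhhc17 metastases, without overlap between groups. In bulk RNA, fewer cells of a type that makes a transcript and less of it per cell cannot be told apart. Mmp12, an elastin-degrading enzyme best known from macrophages, had 62.2, 76.4 and 47.3 CPM in shZdhhc17 metastases and 105, 113 and 108 CPM in shSCR metastases. The shSCR libraries lay close together and every shZdhhc17 library lay well below them. The log2 fold change was -0.81 ± 0.18 (SE; adjusted p = 0.307). Mmp13, which cleaves fibrillar collagens and is the main interstitial collagenase of rodents, had 13.8, 24.5 and 20.0 CPM in shZdhhc17 metastases and 26.9, 54.1 and 50.1 CPM in shSCR metastases. The groups were separated by a narrow gap, since shSCR replicate 1 lay close to the highest shZdhhc17 library. Its log2 fold change was -1.17 ± 0.31 (adjusted p = 0.315).

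With each library left out, the log2 fold changes lay between -0.99 and -0.65 for Mmp12 and between -1.42 and -0.96 for Mmp13. In these edgeR fits the unadjusted p stayed under 0.05. As the groups did not overlap, leaving out a library could hardly change the direction, so the kept direction is no further support. With DESeq2 the adjusted p was 0.0252 for Mmp12 and 0.0382 for Mmp13. Under every other setting it lay between 0.173 and 0.811 for Mmp12 and between 0.160 and 0.811 for Mmp13. In the authors' deposited table, made with DESeq2 from the same counts, the log2 fold changes were -0.79 (q = 0.0325) for Mmp12 and -1.15 (q = 0.0370) for Mmp13, the only members among its 204 genes with q under 0.05. A column guide deposited with that table refers to a different contrast, but its own contrast column reads shZDHHC17 against shSCR. With the stellate cell and fibroblast marker level as a covariate the log2 fold changes were -0.87 ± 0.21 for Mmp12 and -1.02 ± 0.33 for Mmp13. The macrophage markers overlapped between groups, as given above; their part in the Mmp12 difference was not tested. Exons of Mmp12 and Mmp1b overlap on opposite strands, and it is not given here whether reads were counted by strand.

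The groups overlapped for the other 4 tested members of the chromosome 9 block. Mmp3, stromelysin-1, which cuts many matrix proteins and activates other MMP precursors, had 78.1, 55.0 and 29.0 CPM in shZdhhc17 metastases and 73.1, 55.6 and 31.9 CPM in shSCR metastases. The 2 ranges coincided almost fully, and the log2 fold change was 0.01 ± 0.40 (SE; adjusted p = 0.994), below 0 in fits with library totals, voom, a replicate block or a marker covariate. Mmp10, stromelysin-2, varied in the same way, with 5.66, 3.11 and 1.91 CPM in shZdhhc17 and 4.63, 3.45 and 2.01 CPM in shSCR metastases. Mmp27 had 0.818, 0.836 and 1.58 CPM in shZdhhc17 and 1.09, 1.20 and 0.223 CPM in shSCR metastases, again with overlap. Mmp7, matrilysin, an epithelial enzyme made in many carcinomas, had 22.1, 1.67 and 1.52 CPM in shZdhhc17 metastases and 0.981, 2.93 and 3.18 CPM in shSCR metastases. Its log2 fold change of 1.83 ± 1.05 (adjusted p = 0.523) rests on shZdhhc17 replicate 1 and was -0.55 without that library, and its spread over the 6 libraries was the widest among members with at least 1 CPM. Mmp1a and Mmp1b, the mouse interstitial collagenase genes and close copies of each other, had 2 to 7 and 1 to 5 counts per library and were not tested.

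**Figure D4:**
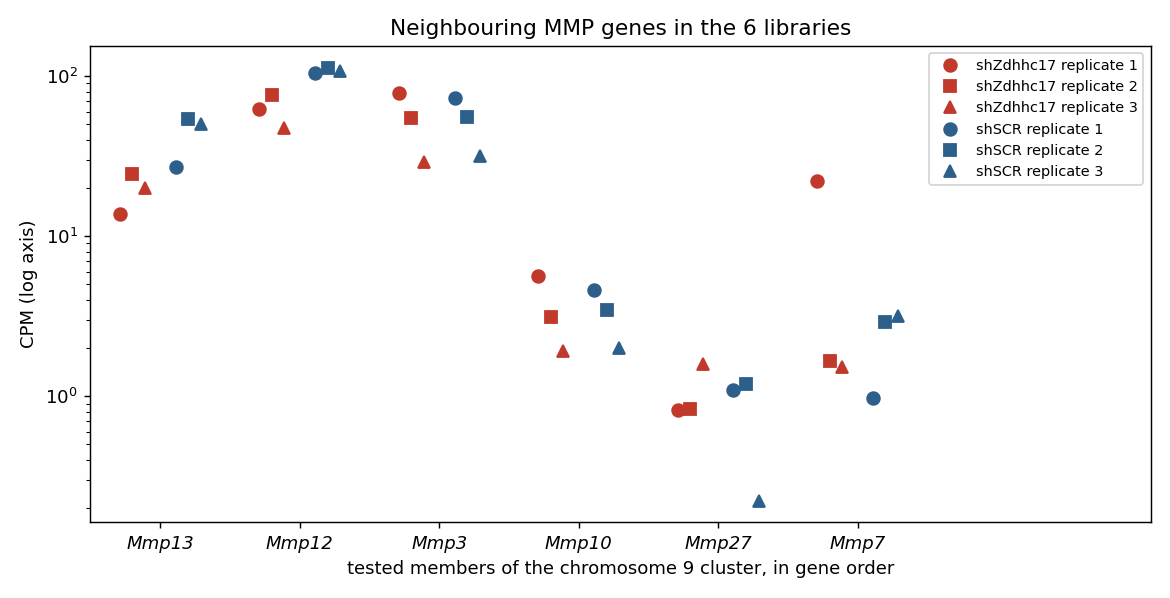
CPM (log axis) of the 6 tested members of the chromosome 9 block in gene order, with shZdhhc17 libraries in red and shSCR libraries in blue and 1 symbol shape per replicate number. Red and blue symbols are apart for Mmp13 and Mmp12 and intermixed for Mmp3, Mmp10, Mmp27 and Mmp7, where shZdhhc17 replicate 1 stands at 22.1 CPM.

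For the MMPs outside that block described next, the groups overlapped. Mmp14, the membrane-type enzyme that cleaves collagen at the cell surface and activates the Mmp2 precursor, had 315, 276 and 284 CPM in shZdhhc17 metastases and 268, 256 and 329 CPM in shSCR metastases. Its log2 fold change of 0.04 ± 0.16 (SE; adjusted p = 0.945) turned to -0.10 under scaling by library totals. Mmp2, gelatinase A, had 68.3, 56.0 and 91.0 CPM in shZdhhc17 and 62.1, 70.9 and 102 CPM in shSCR metastases. Its log2 fold change was -0.13 ± 0.24 (adjusted p = 0.858), and 0.11 without shSCR replicate 3. Mmp19, which acts on basement membrane proteins, had 35.6, 49.4 and 49.2 CPM in shZdhhc17 and 46.7, 35.1 and 31.8 CPM in shSCR metastases, with overlapping ranges. Mmp11, stromelysin-3, described mainly in tumour stroma, had 19.0, 11.2 and 8.31 CPM in shZdhhc17 and 24.0, 20.3 and 14.1 CPM in shSCR metastases (log2 fold change -0.60 ± 0.33, adjusted p = 0.512). The Mmp11 value was -0.99 without shZdhhc17 replicate 1, -0.37 without shZdhhc17 replicate 3 and -1.01 ± 0.22 (adjusted p = 0.620) with stellate cell and fibroblast markers as a covariate. Mmp23, a member anchored by its amino-terminal end, had 6.73, 7.23 and 9.30 CPM in shZdhhc17 and 6.65, 9.99 and 20.6 CPM in shSCR metastases. Its highest value was in shSCR replicate 3, the library with the highest stellate cell and fibroblast markers and the lowest hepatocyte markers. Of the genes left out by the rule, Mmp8 had 17.2, 9.61 and 16.3 CPM in shZdhhc17 and 2.13, 6.85 and 1.28 CPM in shSCR metastases, and Mmp9 had 128, 126 and 77.9 CPM in shZdhhc17 and 96.4, 90.5 and 136 CPM in shSCR metastases.

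Mmp15 and Mmp24, the MMPs that were higher in shZdhhc17 metastases at an unadjusted p under 0.05, are both membrane-type enzymes. Of all genes tested, 4.72% were higher at such a p. Mmp15, membrane-type 2 MMP, had 14.5, 32.8 and 25.1 CPM in shZdhhc17 metastases and 13.4, 15.6 and 10.4 CPM in shSCR metastases. Replicates 2 and 3 of shZdhhc17 lay above every shSCR library, while shZdhhc17 replicate 1 lay within their range. The log2 fold change was 0.88 ± 0.30 (SE; adjusted p = 0.383); it was 0.59 without shZdhhc17 replicate 2 and 0.67 ± 0.29 with hepatocyte markers as a covariate. Mmp24, membrane-type 5 MMP, studied mostly in the nervous system, had 12, 14 and 13 counts in shZdhhc17 metastases and 3, 9 and 9 counts in shSCR metastases. These counts did not overlap, and the log2 fold change was 1.09 ± 0.45 (adjusted p = 0.424). Mmp28, epilysin, a secreted enzyme of epithelia and macrophages, had 1.57, 1.37 and 2.04 CPM in shZdhhc17 and 1.25, 1.05 and 0.837 CPM in shSCR metastases, also without overlap (0.66 ± 0.32, adjusted p = 0.471). Mmp17 and Mmp25, the members held by a lipid anchor, had 2.58 to 3.69 and 2.70 to 5.20 CPM in shZdhhc17 metastases and 2.13 to 4.13 and 1.96 to 6.36 CPM in shSCR metastases. Mmp16, the remaining membrane-type member, had 2, 6 and 4 counts in shZdhhc17 and 1, 1 and 0 counts in shSCR metastases and was not tested.

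**Figure D5:**
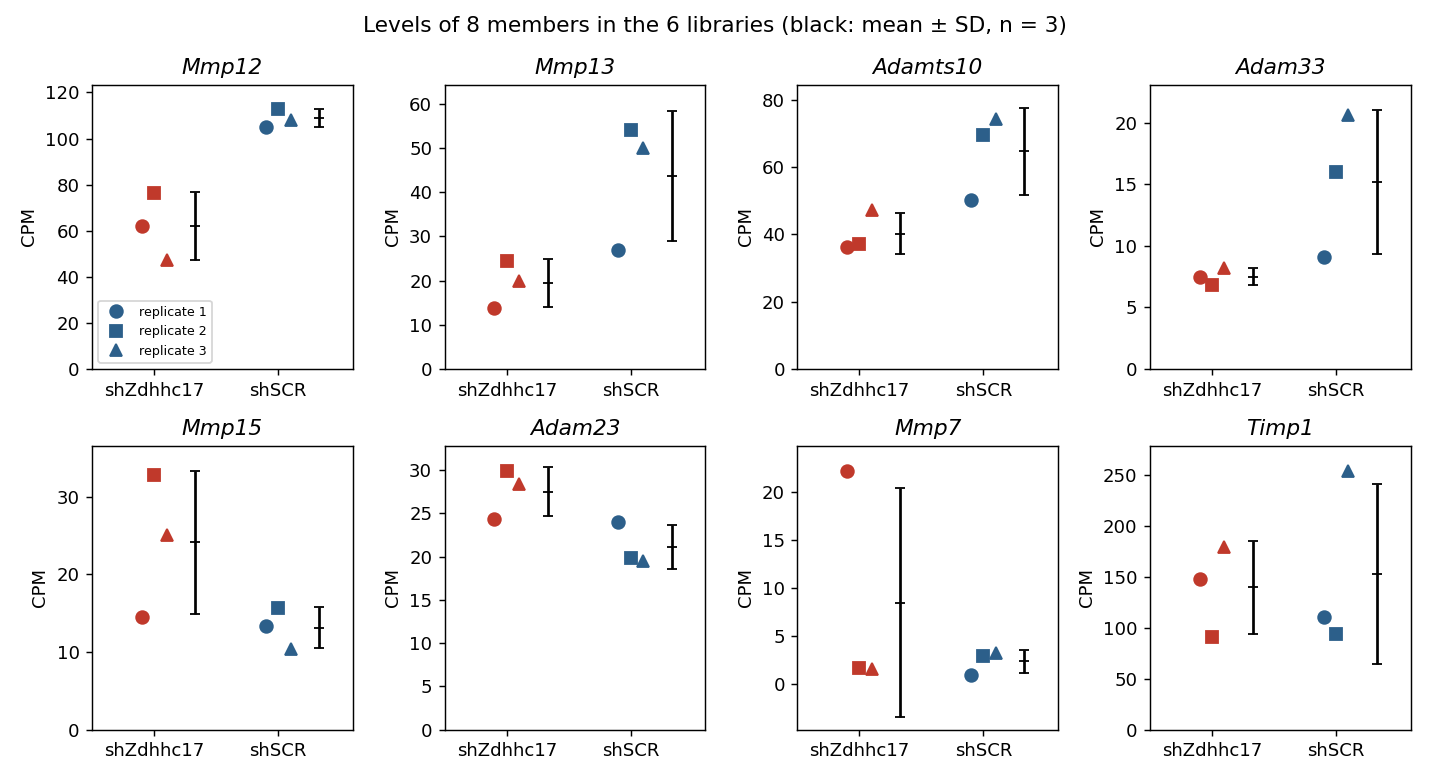
CPM of 8 members in each library (symbols), with the mean and SD of each group in black (n = 3 libraries each), shZdhhc17 left in red and shSCR right in blue; the lower SD bar of Mmp7 runs below 0. The groups are apart for Mmp12, Mmp13, Adamts10, Adam33 and Adam23 and overlap for Mmp15, Mmp7 and Timp1.

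Among the ADAMs, none of the main sheddases passed the test, as no member did. Adam10, which sheds Notch receptors, cadherins and chemokines, had 176, 164 and 153 CPM in shZdhhc17 metastases and 149, 140 and 182 CPM in shSCR metastases. Its log2 fold change of 0.07 ± 0.15 (SE; adjusted p = 0.870) turned to -0.06 under scaling by library totals. Adam17, which releases tumour necrosis factor and ligands of the epidermal growth factor receptor, had 72.3, 79.1 and 71.2 CPM in shZdhhc17 and 88.2, 84.2 and 87.3 CPM in shSCR metastases. The Adam17 groups did not overlap, but the gap was small and the log2 fold change of -0.22 ± 0.11 did not pass the test (adjusted p = 0.485). Adam9, another active sheddase, had 115, 136 and 126 CPM in shZdhhc17 and 110, 110 and 115 CPM in shSCR metastases (0.17 ± 0.12, adjusted p = 0.605). Adam8, found on leukocytes and on tumour cells, had 67.6, 60.9 and 48.6 CPM in shZdhhc17 and 65.5, 73.0 and 102 CPM in shSCR metastases (-0.44 ± 0.20, adjusted p = 0.459), and the value was -0.23 without shSCR replicate 3. Adam15 had 59.2, 53.1 and 55.7 CPM in shZdhhc17 and 43.0, 61.5 and 76.4 CPM in shSCR metastases, with the shZdhhc17 libraries inside the wider shSCR range (-0.11 ± 0.20, and 0.10 without shSCR replicate 3).

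Adam33, a mesenchymal member linked in humans to asthma, was the ADAM with the smallest p. It had 7.48, 6.81 and 8.18 CPM in shZdhhc17 metastases and 9.05, 16.0 and 20.6 CPM in shSCR metastases. The 3 shZdhhc17 libraries lay close together, while the shSCR libraries spread upward from just above them. The log2 fold change was -1.02 ± 0.30 (SE; adjusted p = 0.331). It was -0.79 ± 0.30 with the stellate cell and fibroblast marker level as a covariate and -0.71 ± 0.21 with that of hepatocytes. Without shSCR replicate 3, where the former markers were highest and the hepatocyte markers lowest, it was -0.74. Adam23, which lacks a working active site and is known as an adhesion protein of neurons, had 24.3, 29.9 and 28.4 CPM in shZdhhc17 metastases and 24.0, 19.8 and 19.5 CPM in shSCR metastases. The Adam23 groups were separated by a very narrow gap between the replicates numbered 1, with a log2 fold change of 0.39 ± 0.15 (adjusted p = 0.407). Adam12 and Adam19, the meltrins, had 20.0 to 26.1 and 34.0 to 39.8 CPM in shZdhhc17 and 20.7 to 28.1 and 36.0 to 59.8 CPM in shSCR metastases. Genes known mainly from mouse testis and sperm were near the detection limit: Adam3, Adam4 and Adam1a had 6 to 36 counts per library, and Adam18, Adam21, Adam32 and Adam5 had 0 to 10 and were not tested. Exons of Adam1a overlap those of Mapkapk5 on the same strand in the GRCm38 annotation, so its few counts are uncertain. For Adam18 the counts were 0, 1 and 0 in shZdhhc17 and 4, 10 and 3 in shSCR metastases. Adam28, known from lymphocytes, had 2 to 8 counts per library and was not tested either. The inactive members Adam11 and Adam22, known like Adam23 from neurons, had 14.8 to 29.4 and 0.629 to 0.836 CPM in shZdhhc17 and 17.2 to 19.9 and 0.725 to 0.818 CPM in shSCR metastases.

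In the ADAMTS family, Adamts10, which acts on fibrillin microfibrils, was lower in shZdhhc17 metastases. It had 36.1, 37.1 and 47.3 CPM in shZdhhc17 metastases and 50.1, 69.6 and 74.2 CPM in shSCR metastases. The groups did not overlap, and the log2 fold change was -0.69 ± 0.19 (SE; adjusted p = 0.320). It was -0.55 ± 0.19 with the stellate cell and fibroblast marker level as a covariate and between -0.84 and -0.58 with each library left out. Like Mmp12, Mmp13 and Adam33, Adamts10 kept p under 0.05 in all 6 fits with 1 library left out, which Mmp15, Adam23 and Mmp24 did not. The genes that kept it also had the smallest p-values of the members with all libraries. These fits share libraries, so they are no separate support, and the share of all genes that kept such a p was not counted. In the authors' deposited table q was 0.0860 for Adam33 and 0.115 for Adamts10.

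None of the procollagen processing and proteoglycan-cleaving enzymes passed the test, as no member did. Adamts2, which removes the amino-terminal propeptide of fibrillar procollagens, had 38.6, 40.0 and 52.2 CPM in shZdhhc17 and 43.7, 56.2 and 76.3 CPM in shSCR metastases (log2 fold change -0.43 ± 0.22, adjusted p = 0.494). Adamts14, which has the same activity, had 38.2, 31.8 and 24.6 CPM in shZdhhc17 and 27.9, 36.5 and 47.3 CPM in shSCR metastases (-0.24 ± 0.23, adjusted p = 0.711). The highest value of either gene was in shSCR replicate 3, the library with the highest stellate cell and fibroblast markers. That library also had the lowest hepatocyte markers. Without it the log2 fold changes were -0.20 for Adamts2 and -0.03 for Adamts14. They were -0.19 ± 0.17 and -0.18 ± 0.29 with stellate cell and fibroblast markers as a covariate, and -0.21 ± 0.16 and -0.04 ± 0.20 with hepatocyte markers. The part of either cell type in these values was not tested. Adamts4, an aggrecan- and versican-cleaving enzyme, had 36.6, 38.9 and 33.4 CPM in shZdhhc17 and 39.0, 39.7 and 58.0 CPM in shSCR metastases. The Adamts4 groups met almost without a gap, and the log2 fold change was -0.33 ± 0.18 (adjusted p = 0.515) and -0.12 without shSCR replicate 3. Adamts1, a versican-cleaving enzyme, had 44.9, 47.4 and 47.7 CPM in shZdhhc17 and 44.6, 50.5 and 57.3 CPM in shSCR metastases (-0.12 ± 0.13, and -0.03 without shSCR replicate 3). Adamts15 and Adamts8 had 4.15 to 6.92 and 8.77 to 12.2 CPM in shZdhhc17 metastases and 1.74 to 4.58 and 5.75 to 8.99 CPM in shSCR metastases, with positive log2 fold changes of 0.89 ± 0.42 and 0.51 ± 0.23 that did not pass the test and narrow overlaps. The Adamts15 value was 1.44 ± 0.33 (adjusted p = 0.486) without shSCR replicate 3, 1.36 ± 0.31 (adjusted p = 0.272) with hepatocyte markers and 1.42 ± 0.29 (adjusted p = 0.620) with stellate cell and fibroblast markers as a covariate. Adamts13, the protease of von Willebrand factor that stellate cells of the liver make, had 1.95 to 4.35 CPM in shZdhhc17 and 2.23 to 3.82 CPM in shSCR metastases. The ranges also overlapped for Adamts5 and Adamts9, which cleave aggrecan and versican, at 6.67 to 11.4 and 26.3 to 37.8 CPM in shZdhhc17 and 6.64 to 9.04 and 34.6 to 41.7 CPM in shSCR metastases. Adamts7 and Adamts12, which cleave cartilage oligomeric matrix protein, had 12.7 to 23.1 and 24.2 to 31.5 CPM in shZdhhc17 and 13.7 to 20.7 and 27.6 to 49.5 CPM in shSCR metastases. Adamts6, a relative of Adamts10, had 8.81 to 13.4 CPM in shZdhhc17 and 12.2 to 15.2 CPM in shSCR metastases, and Adamts3 and Adamts16 lay below 2 CPM in each library. Adamts17, Adamts19 and Adamts20 had 0 to 8 counts per library and were not tested.

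The inhibitors themselves did not separate the groups. Timp1, an inhibitor strongly induced in injured liver, had 148, 90.7 and 180 CPM in shZdhhc17 metastases and 111, 93.6 and 254 CPM in shSCR metastases. Its spread within each group exceeded the difference between them, with a log2 fold change of -0.13 ± 0.41 (SE; adjusted p = 0.919) that was 0.45 without shSCR replicate 3 and 0.33 with hepatocyte markers as a covariate. Timp2, which inhibits most MMPs and also takes part in activating the Mmp2 precursor at the cell surface, had 290, 224 and 184 CPM in shZdhhc17 and 227, 214 and 231 CPM in shSCR metastases. Its log2 fold change was 0.06 ± 0.19 (adjusted p = 0.925) and -0.07 under scaling by library totals. Timp3, which binds to the matrix and also inhibits Adam17 and ADAMTS enzymes, had 130, 130 and 193 CPM in shZdhhc17 and 161, 171 and 224 CPM in shSCR metastases. Its ranges overlapped because of shZdhhc17 replicate 3, and the log2 fold change was -0.30 ± 0.21 (adjusted p = 0.605). It was -0.51 ± 0.21 (adjusted p = 0.811) without that library, -0.14 without shSCR replicate 3 and -0.10 ± 0.18 with stellate cell and fibroblast markers as a covariate. Timp1 lies within the span of Syn1, and Timp3 within that of Syn3, whose exons it overlaps on the opposite strand, in the GRCm38 annotation.

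Genes that activate or restrain the enzymes by other means were divided. Of 26 such genes, 4 were higher and 3 lower at an unadjusted p under 0.05 (26.9%, against 11.4% of all genes tested), none passed after adjustment, and their median log2 fold change was -0.12. Groups without overlap were less frequent than among all genes, at 3 of the 26 (11.5%, against 17.1% of all genes tested). A2m, a protein that traps proteases of all classes, had 29.1, 48.1 and 44.8 CPM in shZdhhc17 metastases and 21.0, 21.4 and 13.8 CPM in shSCR metastases (1.12 ± 0.25 SE, adjusted p = 0.307), without overlap. Furin, the convertase that cleaves the propeptide of membrane-type MMPs and ADAMs, had 228, 277 and 233 CPM in shZdhhc17 and 175, 210 and 173 CPM in shSCR metastases (0.40 ± 0.16, adjusted p = 0.408), also without overlap. The pair was higher in all 3 shZdhhc17 libraries. Pzp, on the same list and at a far higher level than A2m, overlapped between groups. It had 2925, 6455 and 5826 CPM in shZdhhc17 and 4564, 3316 and 1491 CPM in shSCR metastases (0.70 ± 0.48, adjusted p = 0.584). The next pair was lower in shZdhhc17 metastases. Pcolce, an enhancer of procollagen C-proteinase, had 99.8, 102 and 93.6 CPM in shZdhhc17 and 140, 116 and 165 CPM in shSCR metastases (-0.51 ± 0.15, adjusted p = 0.351). Rhbdf1, an inactive rhomboid that brings Adam17 to the cell surface, had 58.8, 48.0 and 44.0 CPM in shZdhhc17 and 55.8, 77.4 and 85.3 CPM in shSCR metastases (-0.53 ± 0.19, adjusted p = 0.392), with overlap at the replicates numbered 1.

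Of the matrix proteins that these enzymes cut, 1 of 20 tested was higher and 3 were lower at an unadjusted p under 0.05 (20.0%, against 11.4% of all genes tested), with a median log2 fold change of -0.01. Groups did not overlap for 4 of the 20 (20.0%, against 17.1% of all genes tested). Tnc, tenascin C, a glycoprotein of remodelling matrix, had 124, 107 and 89.4 CPM in shZdhhc17 metastases and 169, 153 and 176 CPM in shSCR metastases (-0.64 ± 0.16 SE, adjusted p = 0.307), without overlap. Col1a2 and Col1a1, the chains of type I collagen, a substrate of Mmp13, had 765 to 927 and 918 to 1172 CPM in shZdhhc17 and 1037 to 2361 and 1122 to 2996 CPM in shSCR metastases, with log2 fold changes of -0.85 ± 0.33 and -0.87 ± 0.37. Col18a1, a basement membrane collagen that hepatocytes make, lay the other way, with 811, 1202 and 1029 CPM in shZdhhc17 and 800, 678 and 422 CPM in shSCR metastases (0.68 ± 0.29, adjusted p = 0.431). Col1a1 is itself one of the stellate cell and fibroblast markers.

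Of 31 membrane proteins that ADAMs shed, 3 were higher and 4 lower at an unadjusted p under 0.05 (22.6%, against 11.4% of all genes tested), with a median log2 fold change of -0.01. Groups did not overlap for 7 of the 31 (22.6%, against 17.1% of all genes tested). Cx3cl1, the membrane-bound chemokine released by Adam10 and Adam17, had 49.2, 64.6 and 50.0 CPM in shZdhhc17 metastases and 76.9, 102 and 128 CPM in shSCR metastases (-0.90 ± 0.21 SE, adjusted p = 0.307). Jag1, a Notch ligand, had 31.6, 22.1 and 24.3 CPM in shZdhhc17 and 41.6, 39.3 and 46.8 CPM in shSCR metastases (-0.71 ± 0.17, adjusted p = 0.307). Il6ra, whose shed form carries interleukin 6 to cells without the receptor, had 78.7, 83.9 and 73.1 CPM in shZdhhc17 and 47.5, 67.4 and 52.0 CPM in shSCR metastases (0.50 ± 0.16, adjusted p = 0.364). For none of these did the groups overlap. Erbb4, a receptor tyrosine kinase, had 9, 7 and 4 counts in shZdhhc17 and 20, 16 and 16 counts in shSCR metastases (-1.16 ± 0.39, adjusted p = 0.378).

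Other zinc peptidases and ADAMTS-like proteins also went both ways: of 18 tested, 2 were higher and 2 lower at an unadjusted p under 0.05 (22.2%, against 11.4% of all genes tested), with a median log2 fold change of 0.11. Groups did not overlap for 5 of the 18 (27.8%, against 17.1% of all genes tested). Papln and Adamtsl5, secreted proteins related to ADAMTS enzymes but without protease activity, had 5.61 to 7.04 and 3.10 to 4.53 CPM in shZdhhc17 and 8.50 to 12.7 and 5.12 to 8.09 CPM in shSCR metastases (-0.67 ± 0.22 and -0.78 ± 0.26). Pappa2, which cleaves binding proteins of insulin-like growth factors, and the carboxypeptidase gene Cpm were low, at 0.776 to 1.32 and 2.11 to 3.11 CPM in shZdhhc17 and 0.112 to 0.545 and 0.614 to 1.69 CPM in shSCR metastases (1.48 ± 0.54 and 0.98 ± 0.41). The groups did not overlap for any of these 4 genes, and their adjusted p-values were 0.373, 0.378, 0.401 and 0.423 in the order named.

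Of 19 transcription factors described at MMP promoters, including AP-1 subunits and ETS and RUNX factors, 1 was higher and 1 lower at an unadjusted p under 0.05 (10.5%, against 11.4% of all genes tested), with a median log2 fold change of -0.10. Groups did not overlap for 5 of the 19 (26.3%, against 17.1% of all genes tested). Atf3, a stress-induced partner of AP-1 subunits, had 23.0, 29.4 and 21.3 CPM in shZdhhc17 metastases and 46.7, 35.9 and 40.2 CPM in shSCR metastases (-0.74 ± 0.17 SE, adjusted p = 0.307), without overlap. The Fos and Jun subunits of AP-1 on the list lay between -0.33 ± 0.27 (Jund, adjusted p = 0.653) and 0.17 ± 0.31 (Fosb, adjusted p = 0.853). Among these subunits only Jun had groups without overlap, at -0.11 ± 0.13 (adjusted p = 0.749). Hif1a, the oxygen-sensing factor, had 151, 139 and 151 CPM in shZdhhc17 and 121, 104 and 121 CPM in shSCR metastases (0.35 ± 0.13, adjusted p = 0.403), also without overlap. Runx2, known to activate Mmp13 in bone, had 26.7, 24.8 and 20.1 CPM in shZdhhc17 and 27.7, 28.0 and 40.4 CPM in shSCR metastases (-0.42 ± 0.20, adjusted p = 0.459), a pair of ranges that lay side by side without overlap. Runx1 had 83.1, 61.0 and 53.7 CPM in shZdhhc17 and 72.0, 82.3 and 84.3 CPM in shSCR metastases (-0.27 ± 0.18, adjusted p = 0.572).

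The authors' deposited table of gene set scores holds sets on the same subject, each with a positive normalized enrichment score in shZdhhc17 against shSCR metastases and none with q under 0.05. The authors' deposited table gives a score of 1.07 (q = 0.755) for a set of 26 matrix metalloproteinase genes, 1.61 (q = 0.261) for activation of matrix metalloproteinases (33 genes) and 1.21 (q = 0.600) for collagen degradation (60 genes). For the 197 extracellular matrix regulators the authors' deposited table gives 1.43 (q = 0.250).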

How the data were processed

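Gene counts of 6 libraries, 3 per group by their titles, came from a stranded polyadenylated RNA kit, per the labels' protocols. The tools listed are STAR 2.6.1 and HTSeq, with FastQC 0.11.8 and DESeq2 1.34.0, with no role given, per the submitters' processing notes. The authors deposited whole-number counts per gene without normalization, on GRCm39, and tables of log2 fold changes, p-values and q-values and of enrichment scores. No source used here says whether reads were counted by strand.

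The whole table of 24167 genes went through filterByExpr and TMM scaling, and the 15567 genes left were fitted with edgeR 4.0.16 (glmQLFit, robust, and glmQLFTest, two-sided), with p adjusted over them by Benjamini-Hochberg. The biological coefficient of variation was 0.235 on 4 residual degrees of freedom. SEs come from the log2 fold change and F. Alternatives were DESeq2 1.42.0, limma 3.58.1 (voom), other scalings and filters, a replicate block, 2 marker covariates (mean log2(CPM + 1)) and leaving out each library. Exon lengths are from a GRCm38 annotation, with a value for all 59 members. Every pair of replicates differed by more than counting noise. The fits were tested on simulated data. Totals of 15832837 to 19186615 counts set the counting precision, and low genes are given as counts.

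Members, lists and the naming rule were chosen with earlier results of these data known. Named are the TIMPs, members at an unadjusted p under 0.05, those without overlap and at least 1 CPM on average, the 5 highest per kilobase of each enzyme family, the 3 most variable members, and the 4 genes of smallest p in each list; other members are given to account for all of them.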

Additional observations from a re-analysis of the deposited data

How the results depend on the processing

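The count of 0 genes past an adjusted p of 0.05 became 3 without a filter on low counts, 210 with DESeq2 and 3 with the hepatocyte covariate, and 0 to 1 with each library left out (1 without shSCR replicate 3). Called members numbered 2 with DESeq2 and 0 to 0 with each library left out. Members at an unadjusted p under 0.05, 7 in all, became 12 (of 59) without a filter and 4 to 10 with each library left out, the lowest without shZdhhc17 replicate 2; of all genes 11.4% had such a p, 9.50% without a filter and 5.90 to 18.2% with each library left out. Their median log2 fold change of -0.11 became -0.26 with library totals, 0.00 with the stellate cell and fibroblast covariate, and -0.17 to -0.01 with each library left out. Of 240 log2 fold changes of 24 named members under 10 other settings, 225 kept their direction and 15 reversed. With library totals these were Adam10 (-0.06), Mmp14 (-0.10), Mmp3 (-0.08) and Timp2 (-0.07). Mmp3 was at -0.02 with voom and at -0.02 with the replicate block. With the hepatocyte covariate Adam15 was at 0.11, Mmp2 at 0.10, Mmp3 at -0.14 and Timp1 at 0.33; with the stellate cell and fibroblast covariate Adam15 was at 0.04, Mmp2 at 0.11, Mmp3 at -0.50, Timp1 at 0.38 and Timp2 at -0.05. With each library left out the ranges were -0.00 to 0.19 for Adam10, -0.30 to 0.10 for Adam15, -0.03 to 0.15 for Mmp14, -0.33 to 0.11 for Mmp2, -0.35 to 0.32 for Mmp3, -0.55 to 2.33 for Mmp7, -0.38 to 0.45 for Timp1 and -0.12 to 0.20 for Timp2. The causes were not tested. With the replicate number as a block 0 genes passed and 9 members had an unadjusted p under 0.05, beside 10.4% of all genes. Mmp11 was among these members, at -0.65 ± 0.17. The block changed the SE of Mmp3 from 0.40 to 0.11 and that of Mmp7 from 1.05 to 1.31. Over all genes tested, deviations of same-numbered libraries correlated at -0.06, 0.32 and -0.05, and not every library correlated best with its own number. Taken from groups of 3 libraries, these correlations cannot settle whether the numbers pair the libraries. DESeq2 gave no p for Mmp7. Counts below about 10 per library, as for Mmp24 in shSCR and Mmp16, limit what can be told of those members.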
